A study of Mus musculus with 10 samples.

Results

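The genes described here were the subunits and regulators of the proteasome, taken as every gene of the expression table whose symbol begins with Psm, then a letter from a to g and a digit. This rule found 48 of the 12160 listed genes. Of these, 47 belong to the proteasome, and Psmc3ip, which encodes a partner of meiotic recombinases, matched by name only. RNA-seq had been performed on tuft cells and on non-tuft epithelial cells from wild-type male CD1 mice with pancreatitis that was induced by repeated caerulein injection (the strain field of the sample records reads "Mixed"). Tuft cells, a rare chemosensory epithelial cell type, were sorted as Cd45-neg, EpCAM+ and Siglec f+, and non-tuft epithelial cells as Cd45-neg, EpCAM+ and Siglec f-neg. There were 5 libraries of each group, each from 100 cells of an individual mouse, and no library from an uninjured pancreas. Both cell types were sorted from 5 mice, but no source says which libraries share a mouse. The tests below therefore treat the 10 libraries as independent, except where a block is named. Values were log2(RPKM + 1), which is scaled by transcript length. Other differences between genes, such as in amplification or in reads shared with another gene, were not corrected. Comparisons of level between genes below are therefore approximate. Differences below are tuft minus non-tuft on this log2 scale, with the standard error (SE) or the 95% interval of the limma fit over all listed genes and its Benjamini-Hochberg adjusted p.

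The 26S proteasome degrades proteins tagged with ubiquitin. Its 20S core is a barrel of alpha and beta rings with the active sites of beta5 (Psmb5, chymotrypsin-like), beta1 (Psmb6, caspase-like) and beta2 (Psmb7, trypsin-like) inside, and the 19S cap recognises, unfolds and feeds in the substrate. Interferon gamma and other inflammatory cues induce the alternative catalytic subunits Psmb8 (beta5i), Psmb9 (beta1i) and Psmb10 (beta2i), which take the place of their counterparts to form the immunoproteasome, known for making peptides for MHC class I. The 11S activators Psme1 and Psme2 (PA28 alpha and beta) are induced by the same cytokine.

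The sorted populations carried the markers of their labels. All 11 listed tuft markers were called higher in the tuft libraries at an adjusted p under 0.05 in limma. Siglecf, 1 of these 11, was bound to differ, because the cells were sorted on Siglec f. The study had already reported high Dclk1, Pou2f3, Trpm5 and Il25 in these tuft cells. The list was chosen with earlier results known, so this count is no independent check of the sort. Of 12 acinar markers, 9 were called lower by the same rule, and all 12 had a lower mean in tuft libraries. Acinar transcripts were also present in the tuft libraries. Their summed linear level was 723 to 68386 there, lowest in tuft 5 and highest in tuft 4, against 68065 to 101393 in the non-tuft libraries. The sum is weighted to the most abundant genes. In tuft 4, Ctrb1 (15.65), Prss2 (12.86) and Pnlip (9.79) reached into their non-tuft ranges. The other acinar markers were below theirs in tuft 4, such as Ptf1a at 0.62 against 4.03 to 5.17. Of 8 listed leukocyte markers, 1 was called and higher in tuft cells (Ptprc, which encodes Cd45, at 2.74 to 4.33 against 0 to 1.93), and summed leukocyte levels overlapped at 18.8 to 102 in tuft and 28.4 to 277 in non-tuft libraries. At an adjusted p under 0.05 in limma, 2 of 6 islet markers, 1 of 6 ductal markers, 0 of 5 fibroblast and endothelial markers and 1 of 5 dissociation-response genes were called, all lower in tuft libraries. By sign alone, 6, 5, 5 and 4 of them had a lower mean in tuft libraries. The non-tuft libraries were mixed to differing degrees. Their summed tuft marker level was 0.33 (non-tuft 4) to 535 (non-tuft 2), against 4317 to 12539 in tuft libraries. Their summed islet level was 2.36 (non-tuft 4) to 20637 (non-tuft 1), against 0.48 to 30.1 in tuft libraries. The library non-tuft 2 stood apart: it held 3753 genes at the lowest value of the library, the most of the 10 libraries, and it was the lowest library for 17 of the 48 proteasome-named genes (35.4%), against 14.5% of the 8718 genes with a mean level no lower than that of the lowest member. The lowest value of non-tuft 2 was 0.17, against 0 in the other libraries. That library could not be the lowest for a gene at 0 elsewhere, so these shares are not fully alike. Results that rest on non-tuft 2 are given with and without it.

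Promoter sequence is shown for the genes on which the results turn: Psmb10 and Psmg4, the only members called different between the cell types, the other inducible subunits, and the constitutive catalytic subunits for which a window was at hand. The sequences are RefSeq upstream stretches on GRCm38.p6, written 5′ to 3′ on the strand of the gene and ending at the base before the transcription start. They span chr8:105938393-105938492 on the minus strand for Psmb10, chr13:34162864-34162963 on the plus strand for Psmg4, chr17:34198095-34198194 on the plus strand for Psmb8, chr14:54617996-54618095 on the minus strand for Psmb5 and chr11:70525257-70525356 on the plus strand for Psmb6. Psmb9 shares its promoter with Tap1, a peptide transporter gene that is read the other way, and the whole stretch between their starts, chr17:34187331-34187555, is given on the minus strand, that of Psmb9. Capitals mark a GC box (GGGCGG or CCGCCC) in Psmg4, a gamma-activated site (TTCNNNGAA) in Psmb8, the core of the antioxidant response element (TGACNNNGC) in Psmb5 and Psmb6, and a GC box and an inverted CCAAT box (ATTGG) between Psmb9 and Tap1. The Psmb10 stretch has none of the searched letters.
Psmb10: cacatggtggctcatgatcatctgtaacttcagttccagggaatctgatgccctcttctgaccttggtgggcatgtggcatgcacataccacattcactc
Psmg4: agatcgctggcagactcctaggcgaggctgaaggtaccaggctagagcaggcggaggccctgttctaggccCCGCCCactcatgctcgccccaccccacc
Psmb8: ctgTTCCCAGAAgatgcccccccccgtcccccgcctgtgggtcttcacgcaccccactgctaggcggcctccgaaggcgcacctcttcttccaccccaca
Psmb5: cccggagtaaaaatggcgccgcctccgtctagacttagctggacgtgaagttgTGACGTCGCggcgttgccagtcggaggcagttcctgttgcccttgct
Psmb6: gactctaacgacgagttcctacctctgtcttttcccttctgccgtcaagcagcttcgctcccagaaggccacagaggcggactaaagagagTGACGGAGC
Psmb9 and Tap1 interval: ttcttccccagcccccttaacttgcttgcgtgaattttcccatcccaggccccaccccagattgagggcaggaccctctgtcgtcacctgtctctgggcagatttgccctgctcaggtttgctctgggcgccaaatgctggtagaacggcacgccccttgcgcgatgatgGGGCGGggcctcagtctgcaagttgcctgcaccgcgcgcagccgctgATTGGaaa

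The 5 motifs were searched on both strands in the 250 bases before the start, and RefSeq had such a window for 41 of the 48 genes. A GC box was found for 22 of these 41 (53.7%), against 32.7% of 32851 windows of the same length over all genes. A member counted if any of its windows matched, whereas the background counts single windows. The 41 members had 44 windows, of which 23 held a GC box. The CCAAT box was found for 14 members (34.1%, against 33.8% of the windows) and the antioxidant core for 5 (12.2% against 10.2%). The interferon-stimulated response element was found for Psmb3, Psmd4 and Psmd9 (7.32% against 2.98%) and for none of the inducible subunits, and the gamma-activated site for Psmb8 and Psmg1 (4.88% against 7.02%). These are matches of letters only, and no test was made of them.

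Most proteasome genes were highly expressed and close between the cell types. The median level of the 48 was 5.82, against 2.48 over all listed genes, and 45 were above the floor (the lowest value of a library) in all 10 libraries. The exceptions were Psmb8 and Psmb9, at the floor in non-tuft 2, and Psmc3ip, at the floor in 3 tuft libraries. The median difference was 0.16 for the 48 and 0.02 for all genes, with 30 members higher in mean in tuft cells and 18 lower. Of all 12160 genes, 6186 were higher in mean and 5974 lower. Without non-tuft 2 the median was 0.04 for the 48 and 0.02 for all genes, with 28 members higher in mean. The median size of the difference was 0.37, against 0.65 for all genes, and 41 of the 48 (85.4%) differed by less than 1, against 67.4% of all genes. These comparisons were not matched for level. The members also varied less within a group, with a median SD of 0.42 in tuft and 0.57 in non-tuft libraries. Over all genes it was 0.71 and 0.90. The plot of differences for the 48 genes shows most intervals across 0.

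**Figure D1:**
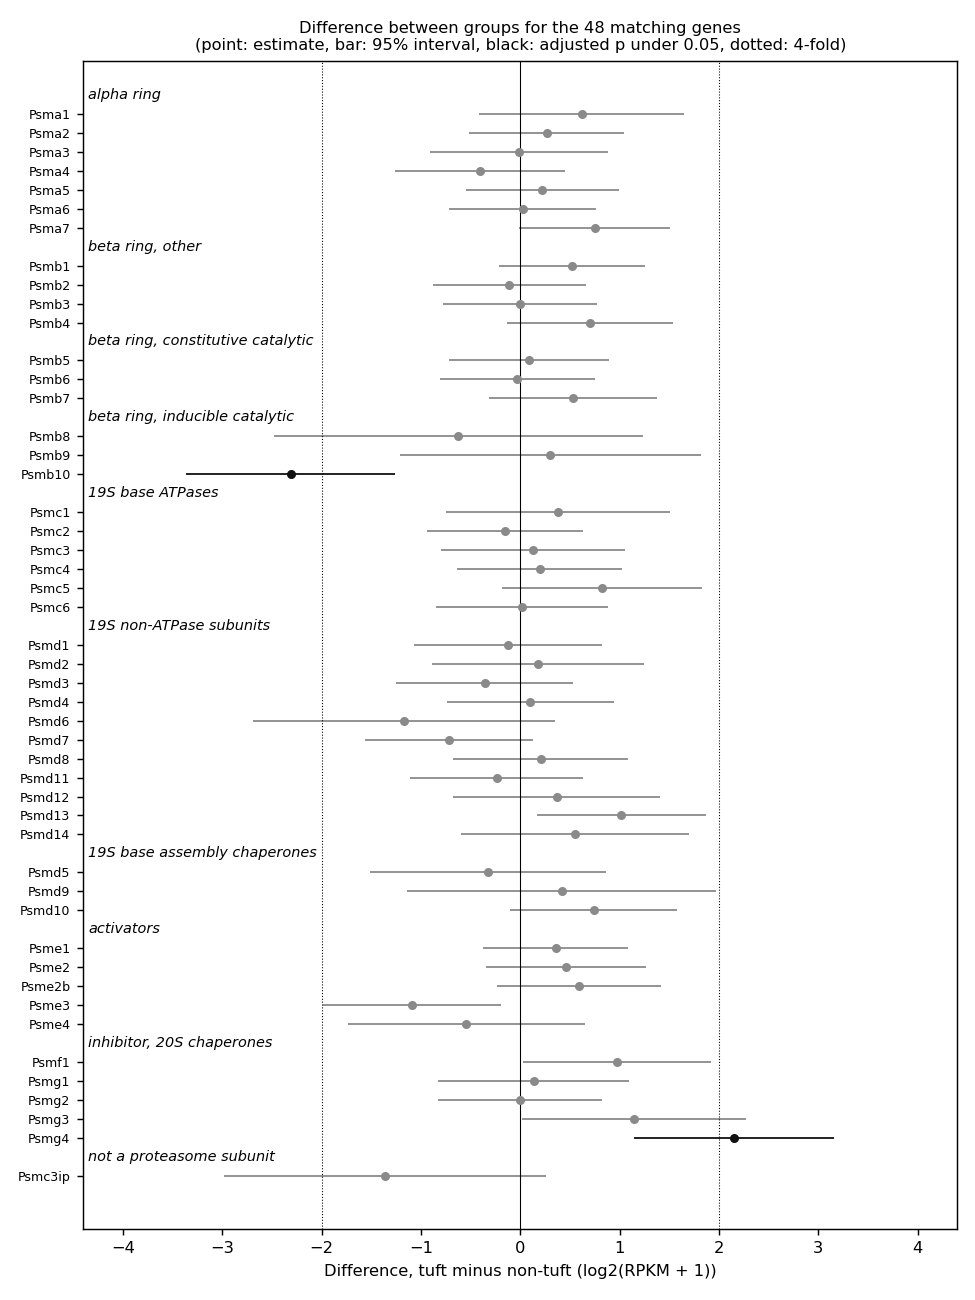
Each row is a matching gene, grouped by role, the point is its tuft minus non-tuft difference on the log2(RPKM + 1) scale (x axis) and the bar its 95% interval from limma with 5 libraries a group. Psmb10 lies at -2.31 and Psmg4 at 2.15, both drawn in black for an adjusted p under 0.05 and both beyond the dotted 4-fold lines, and the 14 constitutive core subunits lie between -0.40 and 0.75.

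At an adjusted p under 0.05, 2 of the 48 (4.17%) were called, against 11.7% of all listed genes. The same 2 passed the rule of the study, which asks for a fold change over 4 as well, against 8.31% of all genes. Psmg4 was the gene called higher (all genes, 6.19%, or 4.32 percent with the fold), and Psmb10 the gene called lower (5.55%, or 3.99%). With an unadjusted p under 0.05 there were 6 members (12.5%, against 25.1%), Psmd13, Psmf1, Psmg3 and Psmg4 higher and Psmb10 and Psme3 lower. Among the 7270 genes with a mean level of at least 2, 47 of the 48 remained and 2 were called, against 16.0%. The groups did not overlap for 4 members (all genes, 11.4%), of which Psma7, Psme1 and Psmg4 were higher in tuft cells (6.31%) and Psmb10 lower (5.12%). Taken in either direction, the share of members was below the background under each of these rules. For groups not overlapping with tuft higher, the shares were about the same (6.25% against 6.31%). With libraries centred on ribosomal protein genes, described below, the share called higher was above the background (25.0% against 19.5%). No test was made of these shares. In sorted bulk samples, fewer cells with a transcript and less of it per cell cannot be told apart.

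The inducible subunit Psmb10 was lower in tuft cells. It was at 8.85, 9.05, 6.63, 8.30 and 7.86 in non-tuft libraries 1 to 5, and at 5.67, 6.32, 5.32, 6.09 and 5.73 in tuft libraries 1 to 5. Every tuft library was below every non-tuft library, and the nearest were non-tuft 3 and tuft 2. The mean was 8.14 ± 0.97 (SD, n = 5) in non-tuft and 5.82 ± 0.39 (SD, n = 5) in tuft libraries, a difference of -2.31 (SE 0.49, 95% interval -3.36 to -1.27, limma adjusted p = 0.00706), or 4.97-fold on the scale of RPKM + 1. The exact two-sided permutation test over the 10 libraries gave p = 0.00794, the smallest it can give. Over the 10 fits that each lacked a library the difference was -2.69 to -2.08, with limma adjusted p from 0.00191 to 0.0241. In rank, Psmb10 was the highest of the 48 genes in 4 non-tuft libraries and number 13 in non-tuft 3, and it ranked between 18 and 30 in the tuft libraries. Of the 14 constitutive core subunits, 13 had a higher mean than Psmb10 in tuft cells.

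Psmb10 lies on the minus strand of mm9 at chr8:108459628-108462292. Its nearest listed neighbour is Ctrl, a chymotrypsin-like digestive enzyme of acinar cells, which lies on the same strand with 1865 bases between the genes, at chr8:108455894-108457762. Ctrl was at 10.97 to 12.22 in the non-tuft libraries and at 8.98, 8.99, 1.31, 9.67 and 3.26 in tuft libraries 1 to 5. Across the tuft libraries Psmb10 was at 5.32 to 6.32 and Ctrl at 1.31 to 9.67, and both were lowest in tuft 3. Among the non-tuft libraries, non-tuft 3 had the lowest Psmb10 (6.63), the lowest Ctrl (10.97) and the lowest summed acinar level (68065). At the ends of the summed acinar range in tuft libraries, Psmb10 was 5.73 in tuft 5 (sum 723) and 6.09 in tuft 4 (sum 68386). Those sums are weighted to the most abundant genes. An antisense gene, Gm16156, spans Psmb10 without sharing an exon with it, and the library method does not mark strand. The part of acinar transcripts in the Psmb10 difference was not tested.

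The other inducible subunits were low and varied widely within the groups. Psmb8 was at 4.28, 0.17, 3.35, 5.33 and 4.02 in non-tuft libraries 1 to 5 and at 1.33, 1.79, 3.23, 3.93 and 3.76 in tuft libraries 1 to 5. Psmb9 was at 3.15, 0.17, 2.11, 3.92 and 3.86 in non-tuft and at 1.82, 2.59, 3.87, 2.67 and 3.78 in tuft libraries. The groups overlapped for both genes, and the value of 0.17 in non-tuft 2 is the floor of that library. Psmb8 differed by -0.62 (95% interval -2.48 to 1.24, limma adjusted p = 0.699) and ranged from -1.44 without non-tuft 2 to -0.15 without non-tuft 4. Psmb9 differed by 0.30 (95% interval -1.22 to 1.82, limma adjusted p = 0.832) and by -0.32 without non-tuft 2, so its direction turned on that library. The intervals reach past a 4-fold difference for Psmb8 and past a 2-fold difference for both, and the data do not settle whether either gene differed. Both genes lie within the MHC region, at chr17:34334666-34338399 on the plus strand for Psmb8 and chr17:34318933-34324709 on the minus strand for Psmb9 (mm9), with Tap1 between them. In the GENCODE annotation of mm9, exons of Psmb9 overlap those of Tap1 and exons of Psmb8 those of Gm20496. Reads in these stretches could count for either gene. That annotation has Psmb9 and Tap1 overlap by 212 bases, unlike the RefSeq starts used for the promoter stretch above, which lie apart.

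**Figure D2:**
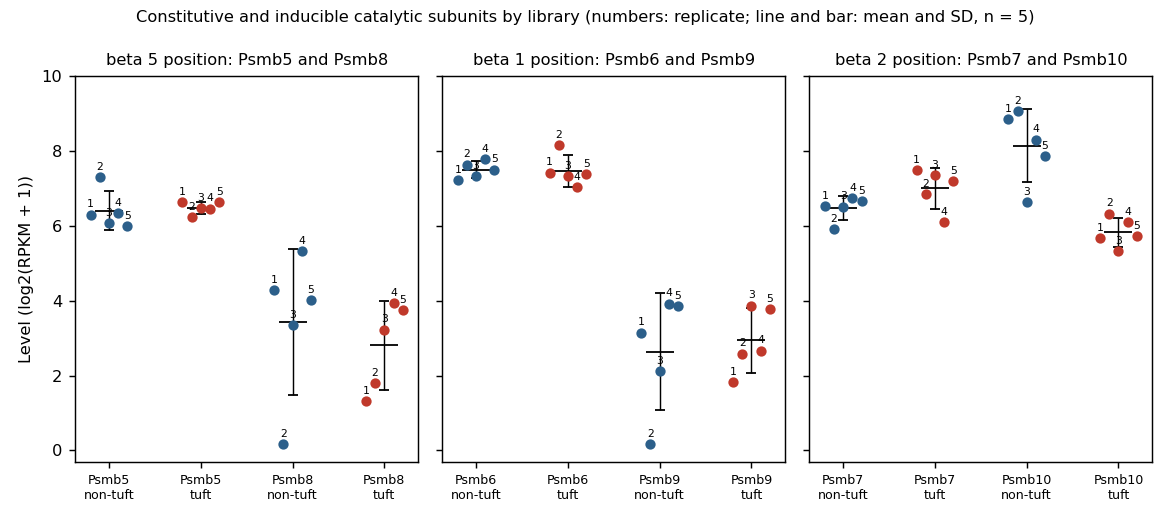
Each panel gives the level (y axis, log2(RPKM + 1)) of a constitutive catalytic subunit and its inducible counterpart, with a point per library, blue for non-tuft and red for tuft, the replicate number above it, and the mean and SD of 5 libraries as line and bar. Psmb10 lies at 6.63 to 9.05 in non-tuft and at 5.32 to 6.32 in tuft libraries, while the groups overlap for Psmb5, Psmb6, Psmb7, Psmb8 and Psmb9.

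None of the constitutive catalytic subunits was called by limma, and the means of Psmb5 and Psmb6 were close between the cell types. Psmb5 was at 6.40 ± 0.52 (SD, n = 5) in non-tuft and 6.48 ± 0.16 (SD, n = 5) in tuft libraries, a difference of 0.09 (95% interval -0.72 to 0.89). Psmb6 was at 7.49 ± 0.22 and 7.46 ± 0.42 (SD, n = 5 each), a difference of -0.03 (95% interval -0.81 to 0.75). Psmb7 was at 6.47 ± 0.33 and 6.99 ± 0.56 (SD, n = 5 each), a difference of 0.53 (95% interval -0.32 to 1.37). These intervals leave out a 4-fold difference in either direction. That of Psmb7 reaches past a 2-fold difference, so the data do not settle whether Psmb7 differed. Psmb7 and Nek6 overlap by 6 bases at their ends, and Psmb5 holds the miRNA gene Mir686.

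To compare each inducible subunit with its counterpart, the difference of their log2 values was taken within each library, so that a constant added to all log2 values of a library drops out. Psmb10 minus Psmb7 was 2.33, 3.14, 0.12, 1.55 and 1.22 in non-tuft libraries 1 to 5 and -1.82, -0.52, -2.03, -0.0051 and -1.47 in tuft libraries 1 to 5. Psmb10 was above Psmb7 in every non-tuft library and below it in every tuft library, narrowly in non-tuft 3 and tuft 4. On the scale of RPKM + 1, the geometric mean of Psmb10 was 319% of that of Psmb7 in non-tuft cells and 44.5% in tuft cells. The balance differed by -2.84 between the cell types (95% interval -4.13 to -1.55). The exact permutation test gave p = 0.00794, the smallest possible, and 0.0238 after Benjamini-Hochberg adjustment over the 3 pairs. Psmb8 minus Psmb5 was -3.68 ± 1.16 in tuft and -2.97 ± 2.40 in non-tuft libraries (SD, n = 5 each; exact permutation p = 0.571, adjusted 0.738), a difference of -0.71 (95% interval -2.84 to 1.42). Without non-tuft 2 this difference was -1.75 (exact permutation, adjusted p = 0.0595), and without non-tuft 4 it was -0.22. Psmb9 minus Psmb6 was -4.52 ± 1.04 and -4.85 ± 1.58 (SD, n = 5 each; exact permutation p = 0.738, adjusted 0.738), a difference of 0.33 (95% interval -1.25 to 1.92), which turned to -0.32 without non-tuft 2. In both of these pairs the inducible subunit was below its counterpart in all 10 libraries, at 7.82% of Psmb5 and 4.37% of Psmb6 in tuft cells and at 12.8% and 3.47% in non-tuft cells. Without non-tuft 2 the non-tuft values were 26.3% and 5.45%, and that of Psmb10 to Psmb7 was 247%.

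**Figure D3:**
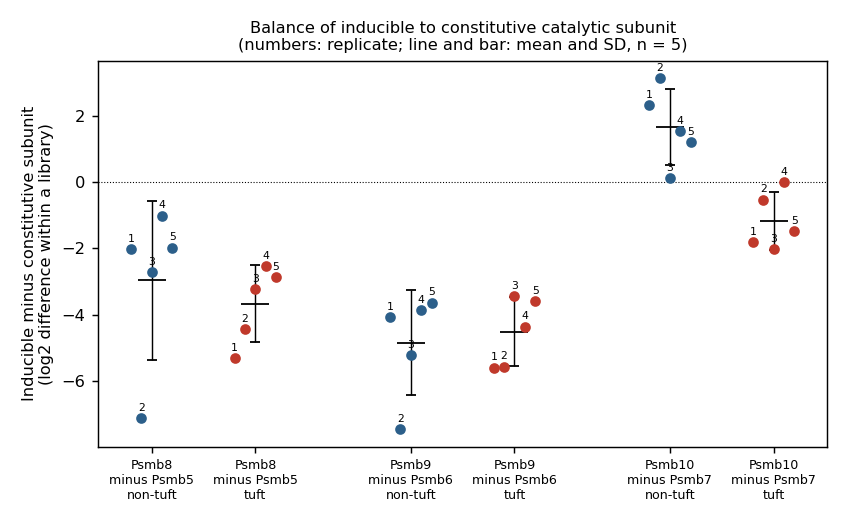
Each point is the log2 difference of an inducible subunit and its constitutive counterpart within a library (y axis), blue for non-tuft and red for tuft, with the replicate number above it and the mean and SD of 5 libraries as line and bar. Only for Psmb10 minus Psmb7 do the groups lie apart, at 0.12 to 3.14 in non-tuft and -2.03 to -0.0051 in tuft libraries.

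The 14 constitutive core subunits, Psma1 to Psma7 and Psmb1 to Psmb7, had mean levels of 5.52 to 7.96. Of these, 9 were higher and 5 lower in mean in tuft cells (all genes, 6186 and 5974), with a median difference of 0.15. None was called by limma (lowest adjusted p = 0.207) or had an unadjusted p under 0.05, and the outermost ends of their 95% intervals were -1.26 and 1.65. The median core level of a library was 6.44 to 7.21 in tuft and 6.60 to 7.0 in non-tuft libraries, and the SD over the core subunits within a library was 0.63 to 0.89.

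Psma7, a subunit of the alpha ring that gates the core, had the highest mean level of the 48 genes. It was at 7.99, 7.42, 7.59, 7.08 and 7.83 in non-tuft libraries 1 to 5 and at 8.04, 8.60, 8.43, 8.28 and 8.29 in tuft libraries 1 to 5. The groups did not overlap, though non-tuft 1 and tuft 1 nearly met. The difference was 0.75 (SE 0.35, 95% interval -0.01 to 1.50), with a limma adjusted p of 0.207. The exact permutation p was 0.00794, unadjusted. Any gene whose groups do not overlap gets this value, and 11.4% of all genes had such groups. The other genes of the 5 highest mean levels were Psmb6, Psmb2 (beta4 of the ring), the alpha subunit Psma2 and the activator Psme1. Psma2 was at 6.62 to 7.66 in non-tuft and 7.33 to 7.86 in tuft libraries, and Psmb2 at 7.05 to 7.83 and 7.12 to 7.84. The 5 smallest differences were those of Psma3 (-0.02), Psma6 (0.03), Psmb3 (-0.00047), the 19S ATPase Psmc6 (0.02) and the assembly chaperone Psmg2 (-0.01).

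In the 19S cap, none of the 17 subunits was called by limma (lowest adjusted p = 0.123, that of Psmd13, the gene with an unadjusted p under 0.05). The ATPases Psmc1 to Psmc6, which unfold the substrate, had differences of -0.15 to 0.82. Of these, 5 of 6 were higher in mean in tuft cells (all genes, 6186 of 12160). The non-ATPase subunits, which include the ubiquitin receptor Psmd4 and the deubiquitinase Psmd14, differed by -1.17 to 1.02, with 6 of 11 higher. Psmd6, a lid subunit, had the lowest of these. It was at 6.12, 5.77, 6.05, 5.41 and 5.67 in non-tuft libraries 1 to 5 and at 1.59, 4.89, 5.80, 4.93 and 5.95 in tuft libraries 1 to 5. Tuft 1 alone was far below the rest, and the other tuft libraries reached into the non-tuft range. The difference of -1.17 (95% interval -2.69 to 0.35, limma adjusted p = 0.334) was -0.41 without tuft 1. Psmd13, also of the lid and named here after its values were seen, was at 2.99 to 4.44 in non-tuft and 4.31 to 5.08 in tuft libraries (difference 1.02, limma adjusted p = 0.123), and its exons overlap those of Sirt3. The chaperones of the 19S base, Psmd5, Psmd9 and Psmd10, differed by -0.33, 0.41 and 0.74, and none was called.

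**Figure D4:**
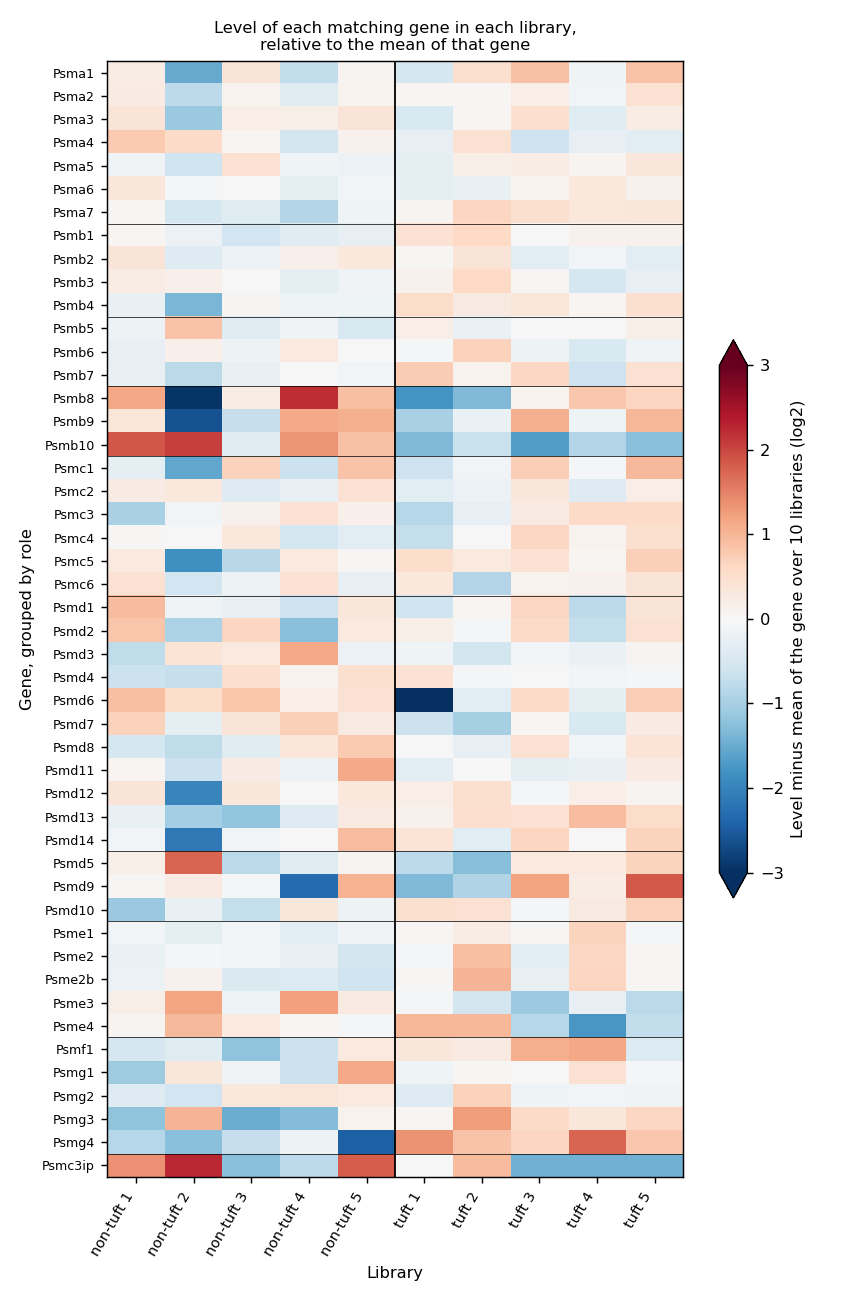
Rows are the 48 matching genes grouped by role and columns the 10 libraries, and the colour is the level minus the mean of that gene over all libraries, on the log2 scale from -3 to 3, with values beyond that in the end colours. Psmg4 is below its mean in all 5 non-tuft and above it in all 5 tuft libraries, Psmb10 is below its mean in all 5 tuft libraries and above it in the non-tuft libraries other than non-tuft 3, and non-tuft 2 is the lowest library for 17 of the 48 genes.

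None of the 5 activators was called by limma, and Psme3 had an unadjusted p under 0.05. Psme1 was at 7.05, 6.86, 7.05, 6.83 and 7.03 in non-tuft libraries 1 to 5 and at 7.17, 7.37, 7.18, 7.80 and 7.08 in tuft libraries 1 to 5. The groups did not overlap, but the gap between non-tuft 1 and tuft 5 was narrow. The difference was 0.36 (95% interval -0.37 to 1.09, limma adjusted p = 0.56). The exact permutation p was again 0.00794, the unadjusted value of any gene whose groups do not overlap. Psme2, its partner in the ring and its neighbour on chromosome 14, differed by 0.46 (95% interval -0.35 to 1.26). Psme2b, a near copy of Psme2 for which reads could be split between the genes, differed by 0.59 (95% interval -0.23 to 1.41). Psme3 (PA28 gamma), an activator of the nucleus, was lower in mean, at 3.50, 4.50, 3.20, 4.55 and 3.58 in non-tuft libraries 1 to 5 and at 3.29, 2.76, 2.24, 3.08 and 2.50 in tuft libraries 1 to 5. Only tuft 1 reached into the non-tuft range, above non-tuft 3. The difference of -1.09 (95% interval -1.99 to -0.20) had an unadjusted p of 0.0203 and a limma adjusted p of 0.115. Psme4 (PA200) was at 5.90 to 6.92 in non-tuft and 4.20 to 6.94 in tuft libraries, with tuft 1 and tuft 2 at 6.93 and 6.94 and the other tuft libraries at 5.20 or lower (difference -0.55, 95% interval -1.74 to 0.65).

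The assembly chaperone Psmg4 was higher in tuft cells. It pairs with Psmg3 to build the alpha ring. It was at 3.10, 2.71, 3.26, 3.80 and 1.51 in non-tuft libraries 1 to 5 and at 5.29, 4.81, 4.60, 5.69 and 4.75 in tuft libraries 1 to 5. Every tuft library was above every non-tuft library, and non-tuft 5 was the lowest of all. The mean was 2.88 ± 0.86 (SD, n = 5) in non-tuft and 5.03 ± 0.45 (SD, n = 5) in tuft libraries, a difference of 2.15 (SE 0.47, 95% interval 1.15 to 3.16, limma adjusted p = 0.00846), or 4.45-fold on the scale of RPKM + 1. The exact permutation test gave an unadjusted p = 0.00794, the smallest it can give. Over the fits that lacked a library the difference was 1.81 to 2.38 and the limma adjusted p 0.00754 to 0.0243, and the fold fell under 4 without tuft 4 (1.99) or without non-tuft 5 (1.81). Psmg4 lies at chr13:34254833-34270041 on the plus strand (mm9), and its exons overlap no other annotated gene.

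Its partner Psmg3 was at 2.97, 5.20, 2.69, 2.87 and 4.29 in non-tuft libraries 1 to 5 and at 4.25, 5.43, 4.75, 4.52 and 4.80 in tuft libraries 1 to 5. Non-tuft 2 and non-tuft 5 lay within the tuft range and the other non-tuft libraries below it. The difference of 1.14 (95% interval 0.01 to 2.27) was not called (limma adjusted p = 0.192), and without non-tuft 2 it was 1.54 with a limma adjusted p of 0.0435. The other chaperones of the alpha ring, Psmg1 and Psmg2, differed by 0.13 (95% interval -0.83 to 1.10) and -0.01 (95% interval -0.83 to 0.82). Psmf1 (PI31), known as an inhibitor of the 20S core, was at 3.47 to 4.98 in non-tuft and 4.26 to 5.83 in tuft libraries, a difference of 0.97 (95% interval 0.03 to 1.92, limma adjusted p = 0.183). Of these 5 genes, 4 were higher in mean in tuft cells (all genes, 6186 of 12160), with a median difference of 0.97. Psmg4 was the 1 called (all genes, 11.7%). Psmc3ip, which is no proteasome gene, was the lowest of the 48 and at the floor in tuft 3, 4 and 5 (difference -1.36, limma adjusted p = 0.287).

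The directions depended on the reference for each library. Centred on its 76 ribosomal protein genes, the median difference of all genes moved from 0.02 to 0.85 and that of the 48 members to 0.98. Relative to that shift, the members were again close to the rest. Under this scaling 13 members were called, 12 of them higher (25.0%, against 19.5% of all genes) and Psmb10 lower (against 2.35%), and Psmb10 differed by -1.48 (limma adjusted p = 0.0421) and Psmg4 by 2.98. The sign turned for 14 of the 48 members, and 44 were then higher in mean in tuft cells. Of the named genes, Psma3, Psmb2, Psmb3, Psmb6, Psmb8, Psme4 and Psmg2 were among those that turned. Centred on the constitutive core, the median of all genes was -0.11, and Psmb10 (-2.45) and Psmg4 (2.02) were the genes called.

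Few genes that work with the proteasome were called. Of 12 listed partners without a Psm symbol, such as the chaperone Pomp and the ubiquitin receptor Adrm1, Uchl5 was called, and the median size of the difference was 0.55, against 0.65 for all genes. Uchl5, a deubiquitinase of the 19S cap, was at 5.73 to 6.56 in non-tuft and 3.65 to 5.47 in tuft libraries, without overlap (difference -1.41, SE 0.42, limma adjusted p = 0.0487). This call was near the threshold, with adjusted p from 0.0438 to 0.0941 when a library was left out. None of 9 genes of substrate delivery was called by limma, and the smallest p was that of Ufd1l, which works with Vcp in pulling out ubiquitinated proteins (1.19, adjusted p = 0.0694). None of 5 transcription regulators of subunit genes was called (Nfya 0.69, adjusted p = 0.426), nor any of 5 ubiquitin genes (Ubb 1.10, adjusted p = 0.206). None of 7 antigen-processing genes was called by limma or had an unadjusted p under 0.05. Over these 38 genes 1 was thus called (2.63%, against 11.7% of all genes), and 3 had an unadjusted p under 0.05 (Uchl5, Ufd1l and Zfand5). Zfand5, a zinc finger protein that binds the proteasome and was named here after its values were seen, was at 3.45 to 4.74 in non-tuft and 4.89 to 5.30 in tuft libraries, without overlap (difference 1.11, limma adjusted p = 0.0716). The 23 proteasome genes not singled out by the rule for named genes differed by -0.72 to 1.02, with a lowest limma adjusted p of 0.123.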

How the data were processed

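Smart-Seq2 RNA-seq of 5 tuft and 5 non-tuft libraries was used, each from 100 FACS-sorted cells, and samples were grouped by their records. The authors mapped single-end reads to mm9 with HISAT2, obtained RPKM with StringTie and Ballgown, removed genes with an RPKM variance under 1, and quantile normalized log2(RPKM + 1) with preprocessCore; the deposited log2 values cover 12160 genes. Quantile normalization gives every library nearly the same distribution of values, so a shift of most genes would not be seen. The deposited fold ratio, p-value and FDR columns hold the authors' own comparison by limma and were not used. Read counts were not used here, so depth is unknown and no counting interval is given. Smart-Seq2 does not mark strand.

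Members were compared with lmFit and eBayes of limma 3.58.1 (R 4.3.3), with default settings, no covariate and Benjamini-Hochberg adjustment over all 12160 genes; the fit was tested on simulated data. Calls required an adjusted p under 0.05, with or without a fold change over 4. Single members and the 3 catalytic pairs were also compared by two-sided exact permutation over the 10 libraries in Python 3.11.15 (scipy 1.17.1, numpy 2.4.6, pandas 2.3.3, matplotlib 3.10.9). For single members that p was not adjusted. A p-value here measures the spread between these libraries, which the records call biological replicates. The members and all gene lists were chosen with earlier results of these data known. The genes named are the catalytic pairs, all Psme, Psmf and Psmg genes, every called member, the 5 members with the highest and lowest levels and with the largest and smallest differences, and, of the 5 partner lists, each called gene and the gene with the smallest p of each list. This gave 25 members and 5 partners, 1 of which is not reported here. Gene positions came from GENCODE vM1 on NCBIM37 (mm9), which held 47 of the 48 genes, all but Psme2b, and promoters from RefSeq on GRCm38.p6. In that annotation, exons of 12 members overlap those of another gene. Psma8 and Psmb11 were not analysed here.

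The records give the libraries replicate numbers 1 to 5 in both groups, and both cell types were sorted from 5 mice, but no source says that a number marks the same mouse. Alternatives were the replicate number as a block, 0.1 or 10 added to the RPKM, a mean level of at least 2, centring on ribosomal protein or constitutive core genes, trend and robust eBayes, an adjusted p under 0.01, and each library omitted.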

Additional observations from a re-analysis of the deposited data

Results flagged for a closer look

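In 102 groups of 5 libraries (the 48 members and the 3 catalytic pairs, each in both cell types), 10 held a library whose gap to the nearest other exceeded Dixon's 95% critical value of 0.71 of the whole range. Chance flags about 1 in 20 such groups. Of the 10, 6 were in non-tuft 2, the library with the most genes at its floor. There Psma3 was at 5.69 (the other non-tuft libraries, 6.97 to 7.18), Psmb4 at 5.70 (6.85 to 7.17), Psmb7 at 5.91 (6.51 to 6.75) and Psmd12 at 3.16 (5.13 to 5.53), all low, while Psmb5 was high at 7.29 (5.99 to 6.34). Psmb8 minus Psmb5 was -7.12 in this library, against -2.71 to -1.01 in the others.

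Among the tuft libraries, tuft 1 was low for Psmd6 at 1.59 (4.89 to 5.95 in the others) and high for Psmd4 at 6.71 (6.20 to 6.31). Psmc6 was low in tuft 2 at 5.34 (6.33 to 6.61). Psmg1 was high in tuft 4 at 5.65 (5.06 to 5.22). The cause of these values was not tested.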

How the results depend on the processing

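The calls of Psmb10 and Psmg4 at an adjusted p under 0.05 held under every alternative run, including an adjusted p under 0.01 and each omission of a library. With 10 added to the RPKM the number of members called rose from 2 to 4, and with a fold over 4 it fell to 1. Centred on ribosomal protein genes it was 13, and 1 with a fold over 4. When a library was omitted the number was 2 to 3, or 1 to 2 with a fold over 4, which was 1 without tuft 4 or without non-tuft 5. Over all genes, 1428 were called and 1190 with 0.1 added, 1475 with 10 added, 2654 with ribosomal centring, 1281 with core centring and 1504 with trend and robust settings. The share of calls that were higher in tuft cells was 52.7%, and 89.2% with ribosomal centring.

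The replicate number as a block called 2 members and 1406 genes. Deviations of same-numbered libraries correlated at 0.0619 to 0.240, and 3 of 5 tuft libraries correlated best with their own number, so the pairing by number is uncertain and was not used for the values above. Under that block, Psmb10 minus Psmb7 kept its difference of -2.84, but sign flips of 5 pairs cannot give a p below 0.0625, the value found, or 0.188 adjusted. Uchl5 was not called under the block (adjusted p = 0.0862), with 0.1 added (0.0844) or with ribosomal centring (0.46).

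Signs turned for 14 of the 48 members with ribosomal centring, the largest of them 0.72 in size before it, for 6 with core centring and for 1 with 10 added. Of the named members, ribosomal centring gave Psma3 0.81, Psmb2 0.72, Psmb3 0.83, Psmb6 0.80, Psmb8 0.21, Psme4 0.28 and Psmg2 0.82. Core centring gave Psma6 -0.11, Psmb5 -0.050, Psmc6 -0.12 and Psmg1 -0.0021, and 10 added to the RPKM gave Psmb3 0.0022. Over omissions of a library the ranges that crossed 0 were -0.29 to 0.095 for Psma3, -0.051 to 0.12 for Psma6, -0.15 to 0.13 for Psmb3, -0.015 to 0.31 for Psmb5, -0.21 to 0.076 for Psmb6, -0.32 to 0.62 for Psmb9, -0.12 to 0.24 for Psmc6, -0.12 to 0.43 for Psmg1, -0.18 to 0.093 for Psmg2 and -0.32 to 0.64 for Psmb9 minus Psmb6. The cause was not tested. The depth of the libraries is unknown, so how far low values such as those of Psmb8 and Psmb9 rest on few reads cannot be given.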
